A study of Mus musculus with 14 samples.

Results

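The TNF superfamily was examined in mature colonic macrophages through 10 genes, namely the cytokine TNF, 7 further ligands that macrophages can make (TNFSF9, TNFSF10, TNFSF12, TNFSF13, TNFSF13B, TNFSF14 and TNFSF15) and the receptors for TNF itself (TNFRSF1A and TNFRSF1B). These 10 were taken by symbol from the 24982 genes of the count table, where names are written in capitals, and all 10 passed the filter on low counts that left 13136 genes for testing. Libraries came from C57BL/6 mice aged 5 weeks that all carried Cdcs1, a colitis susceptibility locus. WT mice carried Cdcs1 alone, IL10RAKO mice carried Cdcs1 and Il10ra -/-, and DKO mice carried Cdcs1, Il10ra -/- and Ccr2 -/- (n = 4 mice each), while a single Cdcs1, Ccr2 -/- mouse (CCR2KO) and a WT mouse absent from the authors' normalised table (WT 4) entered no comparison unless stated. Both deletions were present in every cell of the animal and not only in macrophages, all mice were kept under specific pathogen-free conditions, and the sorted cells were viable leukocytes (CD45+) positive for MHCII, CD11b and CD64 and negative for Ly6C, CD103 and Ly6G, from the lamina propria of colon and cecum. The labels give no sex, litter or batch.

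Ligands of this superfamily are made as trimers on the cell surface, and several are released from it by proteases. TNF is cut free by the protease ADAM17 and signals through TNFRSF1A, which carries a death domain and can lead to NF-kappaB activation or cell death, or through TNFRSF1B, which lacks a death domain and recruits TRAF adaptors. In intestinal macrophages IL-10, acting through its receptor and STAT3, is known to restrain inflammatory cytokine production. The comparisons address whether these genes differ in mature macrophages of mice that lack the IL-10 receptor. They also address whether the genes differ further with the additional loss of CCR2, the receptor that monocytes use to leave the bone marrow. The paper reports spontaneous colitis in Il10ra -/- mice by this age, less severe colitis in DKO mice and no histologic colitis in wild-type mice. Receptor loss and colitis therefore cannot be told apart in the comparisons with WT.

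TNF, TNFRSF1A and TNFRSF1B were higher in both knockout genotypes than in WT, while the other 7 members did not pass the test in either. TNF rose 5.02-fold in IL10RAKO macrophages and 3.46-fold in DKO macrophages, TNFRSF1A rose 2.21-fold and 1.98-fold, and TNFRSF1B rose 1.70-fold and 1.56-fold. Between DKO and IL10RAKO none of the 10 members passed the edgeR quasi-likelihood test (0 at an unadjusted p under 0.05), the edgeR exact test or DESeq2. These 3 of 10 higher members compare with 8.7% of all tested genes called higher in IL10RAKO and 9.23% in DKO (edgeR quasi-likelihood test, Benjamini-Hochberg adjusted p under 0.05), and 0 of 10 lower members with 7.1% and 9.22% called lower. The median log2 fold change of the 10 members was 0.74 in IL10RAKO and 0.76 in DKO, against -0.07 and -0.06 over all tested genes.

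The quality of the libraries bears on these values in a few points. Totals of counted reads ran from 13085287 to 21216468 in the 12 libraries of the fit, so that 3 reads, taken as the floor of detection, correspond to 0.124 to 0.211 CPM (counts scaled to library size, with TMM factors). The targeted gene IL10RA was at 284 ± 70.1 CPM in WT and fell to 7.41 ± 2.67 CPM (IL10RAKO) and 5.31 ± 2.12 CPM (DKO), and CCR2 stood at 593 ± 80.0, 476 ± 128 and 5.67 ± 1.22 CPM (SD, n = 4 each), so both genes followed the labels. Macrophage markers were abundant throughout (12 genes summing to 42922 to 69934 CPM). CD74 and H2-AB1 were the largest parts of that sum, at means of 23357.5 and 15867.7 CPM in WT. Of the 12 genes, 2 were called higher in IL10RAKO, and 1 higher and 2 lower in DKO. ADGRE1 was at 740 ± 112, 500 ± 209 and 358 ± 124 CPM in WT, IL10RAKO and DKO (SD, n = 4 each). CX3CR1 was at 389 ± 52.4, 234 ± 106 and 169 ± 37.6 CPM in the same order. C1QA and C1QB also had lower means in both knockouts than in WT. CSF1R, FCGR1, MERTK, PTPRC, CD74 and H2-AB1 had higher means in both, with H2-AB1 at 24213 CPM in IL10RAKO and 20215.7 CPM in DKO. MERTK was at 44.3 ± 12.9, 66.1 ± 15.6 and 87.1 ± 33.8 CPM in WT, IL10RAKO and DKO. ITGAM and CD68 went in different directions in the knockouts. Other marker lists also moved with genotype. All 6 fibroblast markers were lower in both knockout genotypes, and their summed level was 294 to 577 CPM for WT mice, 15.0 to 53.7 for IL10RAKO mice and 16.1 to 67.0 for DKO mice. LY6C2, which encodes the antigen gated against, was at 6.50 ± 0.80 CPM in WT and at 109 ± 57.7 CPM (IL10RAKO) and 81.8 ± 7.71 CPM (DKO) in the knockouts. Of 7 neutrophil markers, 4 were higher in each knockout, namely CSF3R, CXCR2, S100A8 and S100A9 (summed levels of the list 75.1 to 122, 137 to 303 and 156 to 263 CPM). S100A8, a calcium-binding protein abundant in neutrophils, was at 0 to 0.732 CPM for WT mice, 0.809 to 42.8 for IL10RAKO mice and 9.83 to 21.4 for DKO mice, and its partner S100A9 was at 0 reads, 0.506 to 40.8 CPM and 8.01 to 16.9 CPM. ELANE and MPO, granule enzymes transcribed mainly in neutrophil precursors, were at 0 reads in the 4 WT libraries of the fit and reached at most 18 reads in any knockout library. The dendritic list had 3 of 6 genes higher in IL10RAKO, and 2 higher and 1 lower in DKO. Summed over the list, WT mice had 309 to 1405 CPM, IL10RAKO mice 1545 to 1928 CPM and DKO mice 1028 to 1826 CPM. CCR7 was the largest part of that sum, at means of 506, 1530 and 1356.5 CPM in WT, IL10RAKO and DKO. ZBTB46, XCR1 and CLEC9A, at lower levels, also had higher means in both knockouts. FLT3 had a higher mean in IL10RAKO only (35.8, 48.6 and 29.8 CPM), and CD209A had lower means in both (186, 97.0 and 27.3 CPM). The endothelial list had 2 of 5 genes lower in IL10RAKO and 3 of 5 in DKO, and of the T, NK and innate lymphoid, B cell and plasma cell, granulocyte and mast cell, and epithelial lists 1 gene was called, higher in DKO. In these bulk samples fewer cells of a type and less RNA per cell cannot be told apart, and the part of these markers in the results below was not tested beyond the fit that includes the fibroblast markers.

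**Figure D1:**
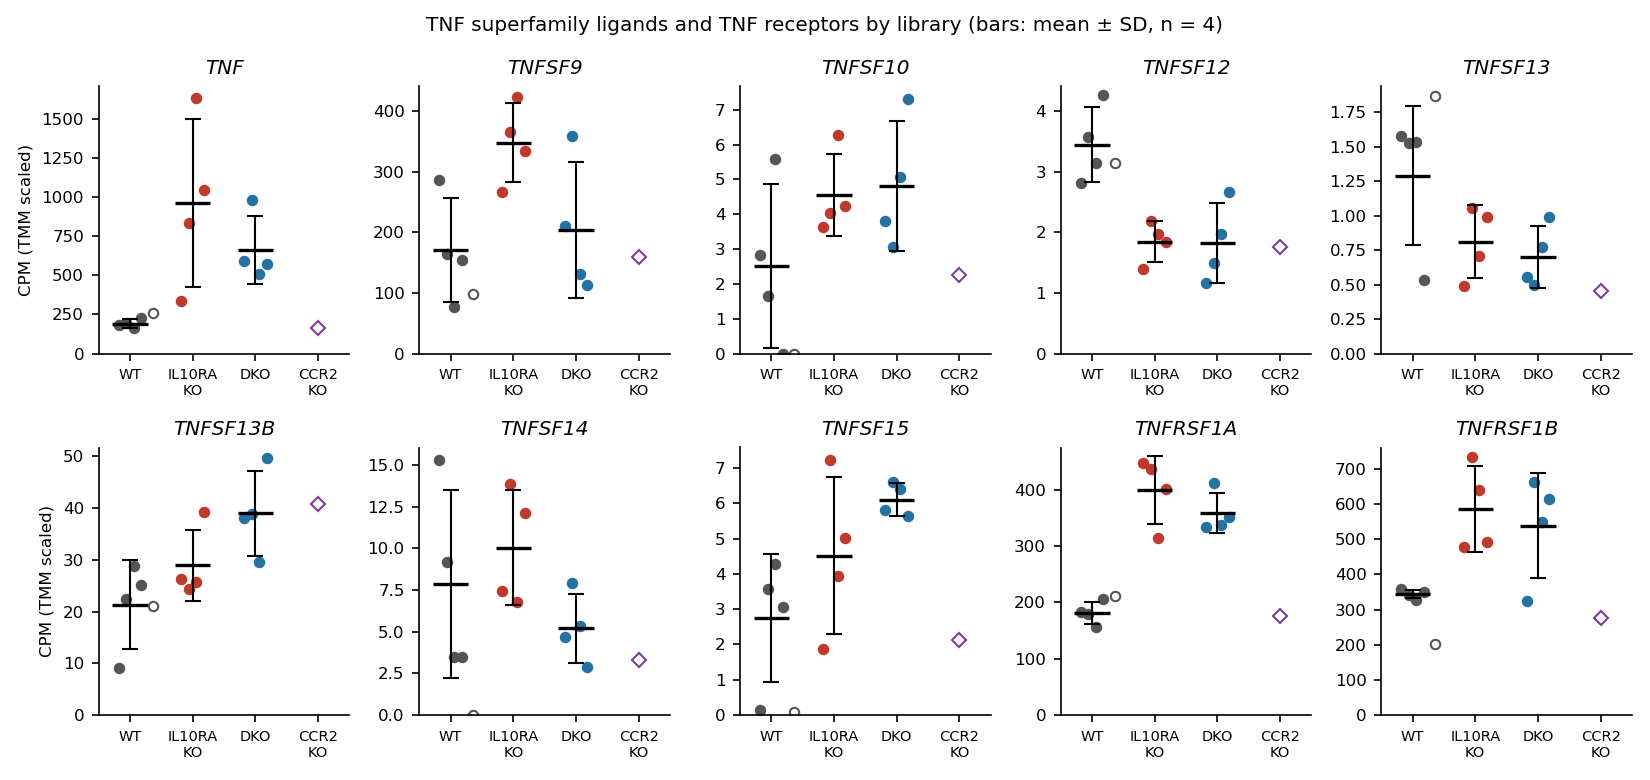
Scaled CPM (linear axis from 0, a scale of its own for each gene) of the 10 members in every library, with filled circles for the 12 libraries of the fit, an open circle for WT 4, a diamond for CCR2KO and bars for the mean ± SD of 4 mice. All knockout libraries lie above all 4 WT libraries for TNF and TNFRSF1A, whereas DKO 1 lies below the WT libraries for TNFRSF1B.

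TNF, the founding cytokine of the family, lies on chromosome 17 at 35199381 to 35202007 (GRCm38, minus strand, GENCODE vM21). It was at 180, 196, 166 and 226 CPM in WT mice 1, 2, 3 and 5. The IL10RAKO mice 1 to 4 had 336, 834, 1639 and 1048 CPM, and the DKO mice 1 to 4 had 590, 985, 508 and 575 CPM. Every knockout library thus lay above every WT library, and the spread within IL10RAKO (964 ± 540 CPM) was far wider than within WT (192 ± 25.8) or DKO (664 ± 217, SD, n = 4 each). The log2 fold change was 2.33 in IL10RAKO (95% confidence interval 1.54 to 3.12, adjusted p = 0.000588, edgeR) and 1.79 in DKO (1.02 to 2.56, adjusted p = 0.00318, edgeR). It held when any 1 of the 12 libraries was left out. The log2 difference between DKO and IL10RAKO was -0.54, with an interval from -1.29 to 0.21 that includes both no difference and a fall of more than 2-fold. TNF took 0.0191% to 0.0260% of the reads in the 4 WT libraries of the fit and 0.0312% to 0.159% in the knockouts. WT 4 had 261 CPM and CCR2KO had 162, both below the lowest knockout library.

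The sequences around TNF that are most often discussed in its control are shown because TNF had the largest fold change of the members in both comparisons with WT. The 250 bases before the RefSeq start of TNF (GRCm38.p6, chr17:35202008-35202257, minus strand) held a TATA box (TATAAA), in capitals, 29 to 24 bases before the start.
TNF promoter: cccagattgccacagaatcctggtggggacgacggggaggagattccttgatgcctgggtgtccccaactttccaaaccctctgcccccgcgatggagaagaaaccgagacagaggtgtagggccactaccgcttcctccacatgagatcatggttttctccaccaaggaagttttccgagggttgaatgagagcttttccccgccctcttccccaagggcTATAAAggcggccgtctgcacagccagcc
TATAAA occurs on either strand in 12.4% of all 32851 RefSeq promoter windows of that length. In the messenger RNA after the stop codon, the AU-rich nonamer TTATTTATT, the kind of element bound by ZFP36 family proteins that destabilise mRNA, occurred 5 times in TNF, and 4 overlapping copies lay within the 30 bases at chr17:35199674-35199703 (minus strand), shown with the copies in capitals.
TNF AU-rich stretch: ttaTTATTTATTTATTATTTATTTATTtgc
Among 20897 coding genes 7.34% had the nonamer at least once and 0.177% had it 5 times or more. Of the other 9 members TNFSF13B had 1 copy and 8 had none.

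TNFRSF1A, the death domain receptor, lies on chromosome 6 at 125349362 to 125362484 (plus strand). WT mice 1, 2, 3 and 5 had 182, 179, 156 and 206 CPM. IL10RAKO mice had 447, 436, 314 and 400 CPM and DKO mice had 333, 411, 338 and 352 CPM. The groups did not overlap, and the log2 fold changes of 1.14 (0.81 to 1.47, adjusted p = 0.000166, edgeR) and 0.99 (0.66 to 1.31, adjusted p = 0.000444, edgeR) had the smallest standard errors of the 10 members (0.153 in both). These calls did not depend on any single library. DKO and IL10RAKO differed by -0.15 (-0.48 to 0.17).

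TNFRSF1B, the receptor without a death domain, lies on chromosome 4 at 145213463 to 145246870 (minus strand). Its level was tight in WT, at 357, 342, 328 and 349 CPM in mice 1, 2, 3 and 5. IL10RAKO mice had 477, 734, 640 and 493 CPM, all above WT. DKO mice had 326, 664, 549 and 614 CPM, so DKO 1 lay just below the lowest WT library. The log2 fold changes were 0.77 (0.32 to 1.21, adjusted p = 0.0219, edgeR) and 0.65 (0.20 to 1.09, adjusted p = 0.0443, edgeR). The IL10RAKO call was lost without IL10RAKO 2 or WT 3, and the DKO call without any 1 of DKO 2, DKO 3, DKO 4, WT 1, WT 2, WT 3 and WT 5 (log2 fold change 0.54 to 0.83 over all 12 omissions). The DKO call was also lost with only genes at 10 reads or more in every library (0.60, adjusted p = 0.0575, edgeR). Scaling by library totals in place of TMM lowered the median of all genes to -0.38 in IL10RAKO and -0.32 in DKO and ended the TNFRSF1B calls (0.46, adjusted p = 0.122, and 0.38, adjusted p = 0.193, edgeR), whereas TNF (2.02 and 1.52) and TNFRSF1A (0.82 and 0.73) kept theirs. DKO and IL10RAKO differed by -0.12 (-0.57 to 0.32).

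**Figure D2:**
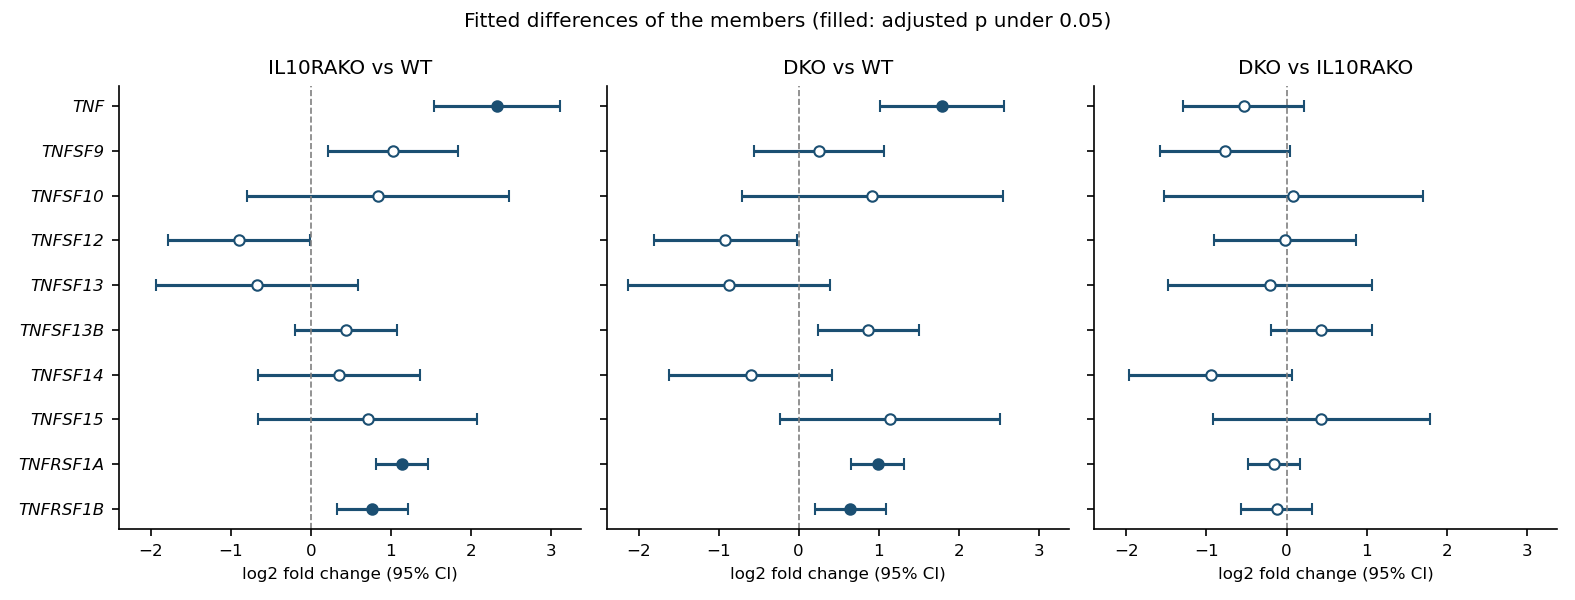
Log2 fold change (x axis) with its 95% confidence interval for each member in the 3 comparisons, filled where the adjusted p was under 0.05. The filled points are TNF, TNFRSF1A and TNFRSF1B in both comparisons with WT, and none is filled between DKO and IL10RAKO.

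The promoter of TNFRSF1B is shown beside that of TNF for comparison. Its 250 bases before the start (GRCm38.p6, chr4:145246871-145247120, minus strand) held, in capitals, a STAT-type GAS element (TTCNNNGAA) 181 to 173 bases before the start and, on the opposite strand, an ISRE core (GAAANNGAAA) in the last 10 bases.
TNFRSF1B promoter: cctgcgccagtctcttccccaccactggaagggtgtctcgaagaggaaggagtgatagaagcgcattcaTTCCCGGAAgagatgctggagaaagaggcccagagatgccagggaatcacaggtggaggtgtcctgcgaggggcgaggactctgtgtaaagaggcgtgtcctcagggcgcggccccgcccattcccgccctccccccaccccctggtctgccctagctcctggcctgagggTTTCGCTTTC
The GAS letters occur in 7.02% and the ISRE letters in 2.98% of all windows. The TNFRSF1A window also held a GAS element, 244 to 236 bases before its start, and TNF held neither. An AP-1 site (TGANTCA, found in 6.75% of windows) was in the windows of TNFSF13, TNFSF13B and TNFSF14. The TNFSF13B window with that site also held an ISRE core, 16 to 7 bases before its start. The NF-kappaB consensus, in 7.25% of windows, was in none of the 9 windows of the 8 members that had a window. Both strands were searched, and a match or its absence in 250 bases says nothing about binding in these cells.

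Because both receptors bind TNF, their balance was examined within each library. TNFRSF1B gave 1.69 to 2.10 reads for each TNFRSF1A read in the 4 WT libraries. The ratio was 1.07, 1.68, 2.04 and 1.23 in IL10RAKO mice 1 to 4 and 0.976, 1.61, 1.62 and 1.75 in DKO mice 1 to 4. On the log2 scale WT libraries averaged 0.93 ± 0.13, IL10RAKO libraries 0.54 ± 0.42 and DKO libraries 0.54 ± 0.39 (SD, n = 4 each). IL10RAKO 3 and DKO 4 lay within the WT range and the other 6 knockout libraries lay below it. The ratio was taken as a description and was not tested. WT 4 had a ratio of 0.960, below the 4 other WT libraries, and CCR2KO had 1.56.

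**Figure D3:**
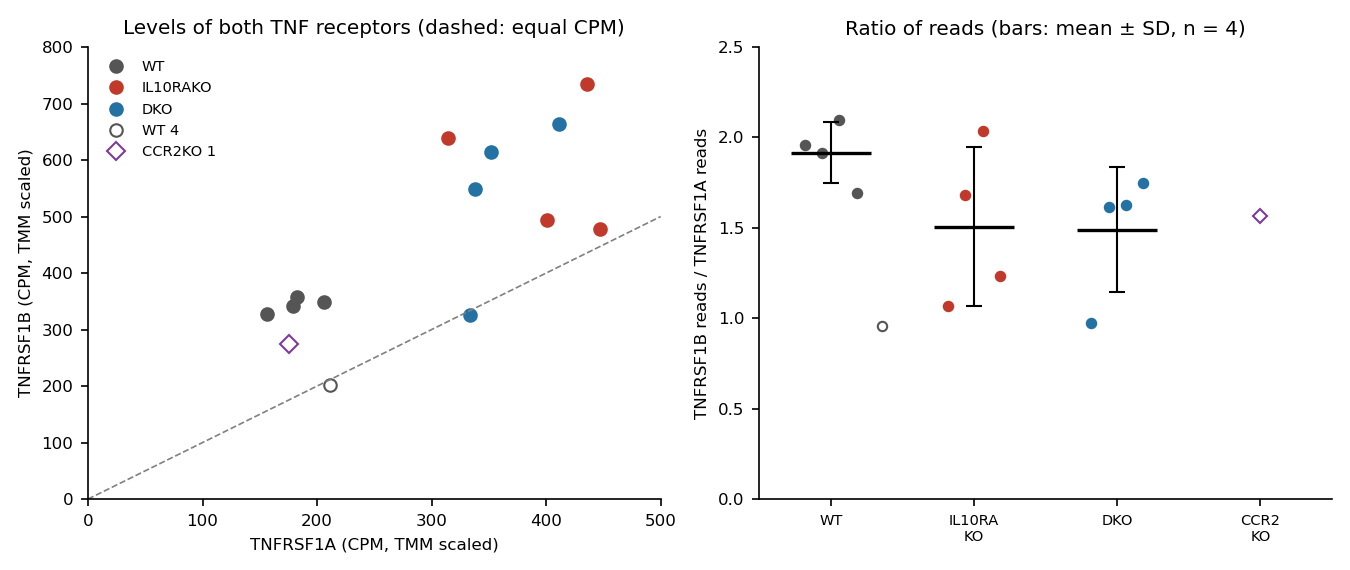
TNFRSF1B against TNFRSF1A in CPM by library (left, with a dashed line at equal CPM), and TNFRSF1B reads divided by TNFRSF1A reads (right, bars for the mean ± SD of 4 mice). WT libraries cluster between 1.69 and 2.10 except the open circle of WT 4 at 0.960, and the knockout libraries spread from 0.976 to 2.04.

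TNFSF9, the ligand of the T cell costimulatory receptor CD137 (TNFRSF9), was the other abundant ligand (chromosome 17, 57105325 to 57107757). It was at 286, 164, 77.2 and 155 CPM in WT, at 267, 365, 424 and 335 CPM in IL10RAKO and at 210, 359, 132 and 113 CPM in DKO. WT 1 overlapped the IL10RAKO range, and the DKO values overlapped those of both other genotypes. The log2 difference from WT was 1.03 in IL10RAKO (0.21 to 1.84, adjusted p = 0.0860, edgeR) and 0.25 in DKO (-0.55 to 1.06). Without WT 1 the IL10RAKO difference passed the test, as it did with the edgeR exact test (adjusted p = 0.0442) and DESeq2 (adjusted p = 0.0265). Between DKO and IL10RAKO the log2 difference was -0.77 (-1.58 to 0.04). Of its exonic bases 192 are shared with a gene on the opposite strand, and the strand setting of the counting is not given in the sources used here.

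TNFSF13B (BAFF) and TNFSF13 (APRIL) are survival factors for B cells and plasma cells. TNFSF13B was at 9.07, 22.5, 28.8 and 25.1 CPM in WT, at 26.2, 24.4, 25.8 and 39.2 CPM in IL10RAKO and at 37.99, 38.8, 29.7 and 49.7 CPM in DKO. All DKO libraries lay above WT, but the log2 difference of 0.87 (0.24 to 1.51) had an adjusted p of 0.0557 by edgeR's quasi-likelihood test. With no filter on low counts, the bias-adjusted deviance of edgeR 4, the edgeR exact test, DESeq2 or without WT 3 it passed (adjusted p = 0.0479, 0.0392, 0.0298 and 0.0241 for the first 4). In IL10RAKO the log2 difference was 0.44 (-0.20 to 1.07). TNFSF13 was near the floor, at 7 to 37 reads per library, and differed from WT by -0.67 (-1.93 to 0.59) for IL10RAKO and by -0.87 (-2.14 to 0.39) for DKO on the log2 scale.

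TNFSF12 (TWEAK), whose gene lies 466 bases from TNFSF13 on chromosome 11, ran from 2.82 to 4.26 CPM among WT mice, from 1.39 to 2.18 among IL10RAKO mice and from 1.16 to 2.67 among DKO mice. Neither knockout group overlapped WT, at 20 to 76 reads per library. The log2 differences of -0.90 (-1.79 to -0.01, adjusted p = 0.170, edgeR) and -0.92 (-1.81 to -0.03, adjusted p = 0.147, edgeR) did not pass the test. With only genes at 10 reads or more in every library, the DKO value became -0.96 with an adjusted p of 0.0496. A read-through gene, Tnfsfm13, shares 731 exonic bases with TNFSF12 and overlaps TNFSF13 too, so the counts of both are uncertain.

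TNFSF10 (TRAIL), TNFSF14 (LIGHT) and TNFSF15 (TL1A) were low, at group means of 2.51 to 10.0 CPM. TNFSF10 was at 0 reads in WT 5 and reached 148 reads in DKO 4, with log2 differences from WT of 0.84 (-0.80 to 2.48) and 0.92 (-0.71 to 2.56). TNFSF14 values of WT mice (3.46 to 15.3 CPM) overlapped those of IL10RAKO mice (6.78 to 13.8) and DKO mice (2.87 to 7.91). Its log2 difference between DKO and IL10RAKO was -0.95 (-1.97 to 0.07). TNFSF15 was at 5.63 to 6.60 CPM in DKO, above the WT libraries, which ran from 0.143 to 4.27 CPM, with a log2 difference of 1.14 (-0.23 to 2.52, adjusted p = 0.246, edgeR). The lowest WT value rested on 3 reads in WT 1. For these 3 ligands the intervals include changes of more than 2-fold in at least one direction, so differences of that size are not excluded. Among the members the groups did not overlap for 3 higher and 1 lower in IL10RAKO, beside 9.45% and 8.78% of all tested genes, and for 4 higher and 1 lower in DKO, beside 11.2% and 11%. Between DKO and IL10RAKO they did not overlap for 0 higher and 0 lower members, beside 1.13% and 1.28%.

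Levels of different genes were compared as CPM per kilobase of annotated exon. In WT, TNFSF9 (132 ± 66.8) and TNF (117 ± 15.8) overlapped at the top, followed by TNFRSF1B (90.1 ± 3.22) and TNFRSF1A (69.8 ± 7.83, SD, n = 4 each), and the ranges of TNF and these receptors did not overlap. In IL10RAKO, TNF led with 588 ± 329 but still overlapped TNFSF9 (269 ± 50.7), and the receptors overlapped at 154 ± 23.3 for TNFRSF1A and 154 ± 32.2 for TNFRSF1B. In DKO, TNF at 405 ± 132 stood apart from TNFSF9 at 158 ± 86.6, which overlapped both receptors. The remaining 6 members were at or below 8.27 CPM per kilobase in every library of the fit, so in each genotype the 4 most abundant members were the same.

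The genes whose log2 CPM was most like that of TNF, after each genotype's mean was subtracted, were BBC3, IL10, ITPKC, IER5 and SORBS3 (Pearson's r = 0.90, 0.90, 0.89, 0.88 and 0.88 over 12 libraries, among 10788 genes with 50 reads or more on average). Among the members TNFSF9 came closest (r = 0.49) and TNFRSF1A had r = -0.29. These are descriptions over libraries that share their genotype means and, for some, the wide range of TNF in IL10RAKO. BBC3, IL10, ITPKC, IER5 and SORBS3 were picked for the highest r among 10788 genes, where high values can arise by chance. No chance level was computed for r over these 12 libraries, so the list does not show that these genes vary with TNF.

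The receptors of the member ligands were read next. TNFRSF9, the receptor of TNFSF9, had at most 7.44 CPM in a WT library and at least 31.05 CPM in an IL10RAKO library and 66.1 CPM in a DKO library, with log2 fold changes of 3.79 (2.80 to 4.79, adjusted p = 7.89e-05, edgeR) and 4.28 (3.26 to 5.29, adjusted p = 2.83e-05, edgeR). TNFRSF10B, the death receptor of TNFSF10, was at 1.13 to 2.17 CPM in WT and 0.187 to 0.773 CPM in the knockouts, and its log2 differences of -1.83 and -1.62 did not pass the test (adjusted p = 0.0544 and 0.0762, edgeR). They passed with library totals, the bias-adjusted deviance of edgeR 4 or the edgeR exact test, and in IL10RAKO also with DESeq2 or with WT 4 added (adjusted p = 0.0068 to 0.0404 over these). TNFRSF12A, the receptor of TNFSF12, had 0.80 (0.05 to 1.54) and 0.28 (-0.47 to 1.02). For TNFSF13 and TNFSF13B, the log2 differences of TNFRSF13B (TACI) were -0.28 and -0.58, and those of TNFRSF13C, the BAFF receptor of B cells, were -0.00 and 0.21, beside B cell and plasma cell markers that summed to 391 to 1851 CPM over all 12 libraries. TNFRSF14 and LTBR, which bind TNFSF14, had 0.64 and 0.80 and 0.28 and 0.36, and TNFRSF25, the receptor of TNFSF15, stayed at or below 4.01 CPM in every library of the fit. The TNFRSF13B difference in DKO did not pass the edgeR test (adjusted p = 0.134), and it passed with library totals (adjusted p = 0.0364) and without DKO 1 or WT 5. Of these receptors TNFRSF9 was the one called apart from those alternatives.

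Of 21 tested receptors of the superfamily outside the members, 4 were higher in IL10RAKO and none lower, and 4 were higher and 1 lower in DKO. The higher ones were CD40, TNFRSF9, TNFRSF4 and FAS in both. Over all tested genes 8.7% were called higher and 7.1% lower in IL10RAKO, and 9.23% and 9.22% in DKO. CD40, through which T cells activate macrophages, ran from 52.7 to 64.8 CPM among WT mice, from 168 to 325 among IL10RAKO mice and from 181 to 250 among DKO mice, and rose by 2.04 (1.62 to 2.46) and 1.77 (1.36 to 2.18) on the log2 scale (adjusted p = 8.00e-06 and 2.53e-05, edgeR). FAS, a death domain receptor, rose by 0.92 (adjusted p = 0.0374, edgeR) and 0.89 (adjusted p = 0.0394, edgeR). In IL10RAKO the FAS call was lost without any 1 of IL10RAKO 2, IL10RAKO 4, DKO 2, WT 2 and WT 3, and in DKO without any 1 of the 4 DKO mice, WT 2 and WT 3. TNFRSF4 (OX40), better known from T cells, was at 0 to 2.23 CPM in WT and 3.30 to 11.3 CPM in the knockouts (2.98, adjusted p = 0.0170, and 2.65, adjusted p = 0.0267, edgeR). Its DKO call was lost without DKO 1 or WT 3, and both calls when WT 4 was added to the fit (adjusted p = 0.100 and 0.148, edgeR). The T, NK and innate lymphoid markers summed to 43.2 to 59.0 CPM for WT mice, 58.3 to 93.9 for IL10RAKO mice and 50.1 to 106 for DKO mice. TNFRSF21, a death domain receptor, fell by 0.57 on the log2 scale in DKO (adjusted p = 0.0350, edgeR), a call lost without any 1 of DKO 1, DKO 2, DKO 3, WT 1, WT 2 and WT 5, and with no filter on low counts (adjusted p = 0.0565, edgeR). In IL10RAKO its log2 difference was -0.19 (-0.56 to 0.18). With library totals in place of TMM, TNFRSF21 (-0.51, adjusted p = 0.0415, edgeR) and TNFRSF11A (-0.86, adjusted p = 0.0420, edgeR) passed as lower in IL10RAKO.

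**Figure D4:**
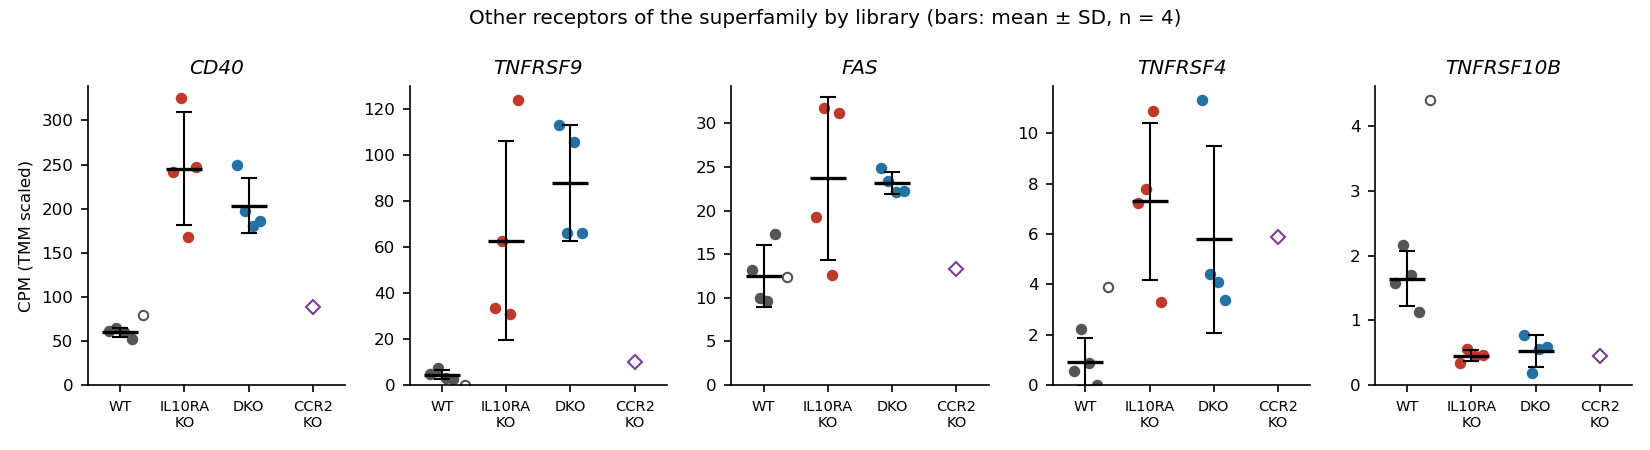
Scaled CPM (linear axes from 0) of 5 receptors of the superfamily in every library, with the same symbols as in the plot of the members. CD40, TNFRSF9 and TNFRSF4 lie above the 4 WT libraries in all 8 knockout libraries, FAS overlaps in IL10RAKO, and TNFRSF10B lies below them but did not pass the test except under the alternatives named above.

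None of the 7 tested ligands outside the members passed the edgeR quasi-likelihood test in IL10RAKO (0 at an unadjusted p under 0.05), nor the edgeR exact test or DESeq2. In DKO, TNFSF8 (CD30 ligand) was lower, at 0.593 to 1.77 CPM against 1.29 to 10.3 in WT (log2 fold change -2.33, adjusted p = 0.0138, edgeR), a call lost without DKO 2 or WT 3. LTA and LTB, which encode lymphotoxins and flank TNF at 1158 and 3061 bases, had log2 differences of 0.98 (-0.41 to 2.36) and 0.66 (-0.17 to 1.49) in IL10RAKO and of 1.30 (-0.09 to 2.69) and 1.09 (0.25 to 1.93, adjusted p = 0.0680, edgeR) in DKO. The LTB difference in DKO passed with the edgeR exact test (adjusted p = 0.0332), with DESeq2 (adjusted p = 0.0201) and without WT 1 or DKO 2.

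Downstream of the receptors, 10 of 26 genes of the receptor complex and NF-kappaB signalling were higher in IL10RAKO and 9 of 26 in DKO, with none lower and list medians of 0.42 and 0.41. Of all tested genes 8.7% and 9.23% were called higher, and 7.1% and 9.22% lower. With library totals in place of TMM, 5 of 26 were called in each genotype, namely TNIP1, TRAF1, TRAF6, MAP3K5 and TAB2. Mean levels of MAP3K5 (51.0, 39.9 and 39.3 CPM) and TAB2 (31.1, 27.4 and 22.8 CPM) were lower in IL10RAKO and DKO than in WT. TNIP1, which restrains NF-kappaB signalling, was at 64.9 ± 7.20 CPM in WT and rose to 160 ± 44.9 CPM (IL10RAKO) and 149 ± 24.8 CPM (DKO), by 1.30 and 1.20 on the log2 scale (SD, n = 4 each). The adaptor TRAF1 rose by 1.83 and 1.47 and TRAF6 by 1.03 and 1.05. BIRC3, a ubiquitin ligase of the TNFRSF1A complex, rose by 0.67 in IL10RAKO (adjusted p = 0.00916, edgeR) and stood at 0.34 in DKO (adjusted p = 0.146, edgeR), and the difference between both genotypes was -0.32 (-0.66 to 0.01). In the cell death branch 5 of 9 genes were higher in each genotype and none lower, with list medians of 0.76 and 0.75. ZBP1, a nucleic acid sensor, rose by 2.35 and 2.19, and MLKL, the executioner of necroptosis, by 1.79 and 2.00. RIPK3, the kinase that activates MLKL, rose by 0.76 and 0.75. With WT 4 added, the MLKL calls (adjusted p = 0.117 and 0.0602, edgeR) were lost.

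Genes that release TNF from the cell surface changed in both directions. RHBDF2, which escorts ADAM17 to the surface of immune cells, was at 74.2 ± 10.1 CPM in WT and rose to 167 ± 46.1 CPM (IL10RAKO) and 190 ± 48.9 CPM (DKO), by 1.17 and 1.35 on the log2 scale. SPPL2A, an intramembrane protease that cuts the TNF stub, rose by 1.06 and 1.25. ADAM17 was at 0.51 in IL10RAKO (adjusted p = 0.0824, edgeR) and rose by 0.62 in DKO (adjusted p = 0.0318, edgeR), a call lost without any 1 of DKO 2, DKO 3, DKO 4, WT 2 and WT 3. The IL10RAKO difference of ADAM17 passed with DESeq2 (adjusted p = 0.0461) and without DKO 1. TIMP3, an inhibitor of ADAM17 secreted by stromal cells, and RHBDF1, the paralogue of RHBDF2 outside the immune system, were lower by -3.87 and -3.58 and by -2.49 and -2.73. These falls stood beside the lower fibroblast markers given above. Of 12 genes that control TNF mRNA stability or translation none was called in IL10RAKO by the edgeR quasi-likelihood test (1 at an unadjusted p under 0.05) or the edgeR exact test, and 1, ZFP36, by DESeq2 (adjusted p = 0.0427). HNRNPD, an AU-rich element binding protein, was called in DKO (0.51, adjusted p = 0.0428, edgeR), a call lost under 7 of 12 single omissions, of DKO 1, DKO 2, DKO 3, DKO 4, WT 2, WT 3 or WT 5. It was also lost with no filter on low counts, with 10 reads required in every library and with only the 2 genotypes fitted (adjusted p = 0.0515, 0.0588 and 0.0528, edgeR). ZFP36, which binds the nonamers shown above, was abundant at 6416 ± 599 CPM in WT, with log2 differences of 0.39 and 0.36 (adjusted p = 0.101 and 0.121, edgeR).

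**Figure D5:**
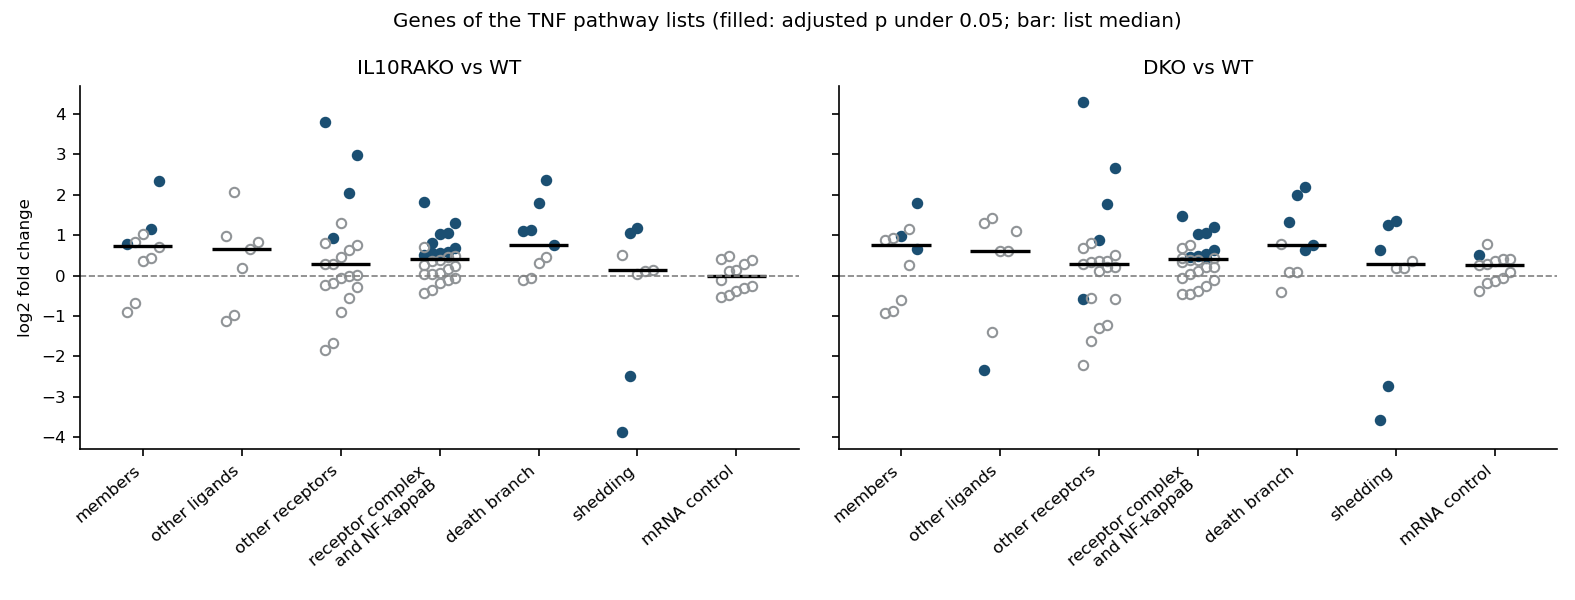
Log2 fold change (y axis) of every tested gene of the members and of the 6 pathway lists in IL10RAKO and DKO against WT, filled where the adjusted p was under 0.05, with a bar at each list's median. Called genes are mostly above 0, and the called genes below 0 lie in the shedding list (TIMP3 and RHBDF1) and, in DKO, include TNFSF8 and TNFRSF21.

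Over the 6 pathway lists, 21 of 83 tested genes were higher and 2 lower in IL10RAKO, and 22 were higher and 4 lower in DKO, beside the shares of all genes given above. With library totals in place of TMM the split became 12 higher and 7 lower, and 12 higher and 9 lower, and the calls of FAS in both genotypes, BIRC3 in IL10RAKO and ADAM17 and HNRNPD in DKO were lost. When the mean of the fibroblast markers entered the fit as a covariate, 0 members and 0 pathway genes were called against WT (edgeR), with TNF at 0.81 and 0.36 and TNFRSF1A at 1.32 and 1.17. At an unadjusted p under 0.05 this fit had 1 member in IL10RAKO (TNFRSF1A) and 2 in DKO (TNFRSF1A and TNFSF14), and it called 29 and 61 of all 13136 genes in place of 2076 and 2424. Fibroblast marker levels did not overlap between WT and the knockouts, so genotype and these markers cannot be told apart in this design.

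Between DKO and IL10RAKO, 0 of 10 members and 0 of 83 pathway genes were called (edgeR), at a background of 0.0152% of all genes higher and 0.0305% lower. At an unadjusted p under 0.05 there were 0 members, 2 pathway genes and 388 of 13136 genes. DESeq2 and the edgeR exact test also called 0 members and 0 pathway genes. The widest interval among the 4 abundant members was that of TNFSF9 (-1.58 to 0.04) and the narrowest that of TNFRSF1A (-0.48 to 0.17), which excludes a change of 2-fold in either direction.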

How the data were processed

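RNA from sorted macrophages was converted to cDNA with SmartSeq v4, and per the paper's methods and the submitters' processing notes reads were demultiplexed with bcl2fastq 2.20 and aligned to mm10 with STAR 2.5.1b. The authors deposited raw read counts per gene (24982 genes, 14 libraries) and edgeR 3.34.0 pseudocounts, a score in which the authors brought all libraries to one size (13338 genes, 12 libraries). Annotation, strand setting and treatment of reads with several alignments are not given in the sources used here. Groups were taken from the genotype labels, and the 12 libraries of the pseudocount table entered the fit.

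Counts were filtered with filterByExpr (minimum count 10), scaled with TMM and fitted for 3 genotypes together with the quasi-likelihood test of edgeR 4.0.16 in R 4.3.3, with Benjamini-Hochberg adjustment over all 13136 genes and calls at an adjusted p under 0.05. P-values weigh each genotype difference against the spread between these mice. Totals of 13085287 to 21216468 reads set the floors of 3 reads, which cover counting error only. No pair of libraries of 1 genotype was close enough to be a duplicate (chi-square per degree of freedom 30.0 or more). Alternatives changed scaling, filter, libraries, deviance, covariate or test (edgeR exact test, DESeq2 1.42.0).

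The members and the pathway and marker lists were chosen with earlier results of these data known. All members, IL10RA, CCR2 and any tested ligand or receptor could be named, with up to 4 genes per direction and list of the smallest adjusted p in IL10RAKO against WT, and the 5 genes most like TNF. A gene of the cell death list that this rule selects is not reported here by itself. Positions, exon lengths and transcripts came from GENCODE vM21 (GRCm38) and promoter windows of 250 bases from RefSeq (GRCm38.p6), which matched 8 of 10 members. All windows were searched, and only those of members called against WT that overlap no annotated exon were printed.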

Additional observations from a re-analysis of the deposited data

Results flagged for a closer look

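Dixon's test at the 95% level was applied to 44 groups of 4 or 5 libraries (10 members and the receptor ratio), of which 33 were separate and the others were the WT groups again with WT 4 added. It marked 5 distinct values, 1 of them in both WT groups, where chance marks about 1 of 20 groups. TNFSF13 was at 0.533 CPM in WT 5, on 8 reads, below both the 4 WT libraries of the fit and all 5. TNFSF13B was at 39.2 CPM in IL10RAKO 4, above the 3 other IL10RAKO libraries. TNFRSF1B was at 203 CPM in WT 4, below the 4 other WT libraries, and the log2 ratio of TNFRSF1B to TNFRSF1A in that library was -0.0595. The same log2 ratio was -0.0343 in DKO 1, below the 3 other DKO libraries.

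The CCR2KO library, which has no replicate and entered no comparison, had TNFSF13B at 40.8 CPM, above all 4 WT libraries of the fit and within the range of the DKO libraries. Only values above all 4 WT libraries were flagged. The library lay below all 4 for TNF (162 CPM, lowest WT 166), TNFRSF1B (275, lowest WT 328) and TNFSF12 (1.76, lowest WT 2.82). It also lay below them for TNFSF13 (0.454, lowest WT 0.533) and TNFSF14 (3.28, lowest WT 3.46). This library was not tested.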

How the results depend on the processing

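TNF and TNFRSF1A were called against WT in both knockout genotypes under every alternative run except the fibroblast covariate, and no member was called between DKO and IL10RAKO under any. With the fibroblast covariate the counts of called members and of called pathway genes were 0 in both comparisons with WT (0 of 10 and 0 of 83, from 3 members and 23 and 26 pathway genes). The fibroblast covariate cannot be separated from genotype, because its marker levels do not overlap between WT and the knockouts. It also turned the log2 difference in IL10RAKO to -0.72 for TNFSF9, 0.0335 for TNFSF12, -1.73 for TNFSF14, -0.18 for TNFSF15, -0.44 for LTA, 0.35 for TNFRSF21 and 0.0801 for TNFRSF11A, and in DKO to -1.55 for TNFSF9, -0.0684 for LTA, 0.0255 for TNFRSF11A and -0.10 for BIRC3. Library totals with no TMM factor turned LTBR to -0.0426 and HNRNPD to -0.0328 in IL10RAKO, TNFSF9 to -0.00978 in DKO, and TNFSF12 to 0.0465 between DKO and IL10RAKO. Called genes over all 13136 became 23.8% and 25.9% higher under that scaling, from 55.1% and 50.0%.

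Leaving out 1 library at a time gave 2 to 4 called members in IL10RAKO, 2 to 3 in DKO and 0 between the knockouts, with 17 to 24, 16 to 28 and 0 pathway genes. The lowest pathway counts in DKO came without WT 3 (16) and without DKO 2 (17). Omissions turned these small differences: TNFSF9 in DKO ranged from -0.16 to 0.63, and between DKO and IL10RAKO TNFSF10 ranged from -0.19 to 0.30, TNFSF12 from -0.26 to 0.15 and TNFRSF1B from -0.24 to 0.0553. With no other alternative did the number of called members leave the range of 2 to 4, or that of pathway genes 18 to 31. FAS in IL10RAKO (adjusted p = 0.0935, edgeR) and TNFRSF4 and HNRNPD in DKO (adjusted p = 0.0669 and 0.0528, edgeR) were not called when only the 2 genotypes compared were fitted. No paired analysis was possible because the groups hold different mice and their replicate numbers only name libraries.

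Depth was low for some members: TNFSF13 rested on 7 to 37 reads per library and TNFSF12 on 20 to 76.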
